A study of Homo sapiens with 12 samples.

Results

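The 10 genes described here form the nuclear end of the Hippo pathway, and they were taken from the count table by their Ensembl IDs. They are the coactivators YAP1 and WWTR1 (TAZ), the DNA-binding partners TEAD1 and TEAD4, and 6 genes that YAP, TAZ and TEAD are known to induce (CCN1, CCN2, ANKRD1, AMOTL2, LATS2 and AJUBA). All 10 had a row among the 20738 genes of the table. Total RNA was sequenced from UPCI-SCC-090 and UM-SCC-47, both cultured lines of human papillomavirus-positive head and neck squamous cell carcinoma. The 4 groups were UPCI-SCC-090 with JQ1, UPCI-SCC-090 with DMSO, UM-SCC-47 with JQ1 and UM-SCC-47 with DMSO, with 3 libraries each and 12 in all. JQ1, an inhibitor of the BET bromodomain proteins that read acetylated chromatin, was given at 500 nM for 72 h, and its vehicle was 0.1% DMSO. The labels number the repeats but do not say that they came from separate cultures, so p-values measure the spread between these libraries, which may be technical. Each line is a single model, and what differs between the lines cannot be told apart from what differs between any pair of lines.

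In the Hippo pathway the kinases MST and LATS phosphorylate YAP and TAZ, which then stay in the cytoplasm or are degraded. When the kinases are inactive, YAP and TAZ enter the nucleus, bind a TEAD factor and recruit coactivators to promoters and distant enhancers. The pathway governs proliferation and the response to stretch and cell density in squamous epithelium, and several of its targets (LATS2, AMOTL2, AJUBA) act back on it. mRNA levels do not show where the YAP protein is or whether it is phosphorylated.

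The TEAD factors read the 6-base core GGAATG, which reads CATTCC on the other strand, and the following stretches are shown because the 2 targets with the largest response in UM-SCC-47, CCN2 and ANKRD1, carry several copies of it close to their start. The sequences are from RefSeq (GRCh38.p14), which gave windows from 250 bases before to 50 after a start for 7 of the 10 genes, 10 windows of 300 bases in all. Positions are counted from the start and are negative upstream of it, and capitals mark the TEAD core and, in ANKRD1, 1 match to TGANTCA, the AP-1 motif.
CCN2, chr6:131951450-131951553, minus strand, -181 to -78 from the start: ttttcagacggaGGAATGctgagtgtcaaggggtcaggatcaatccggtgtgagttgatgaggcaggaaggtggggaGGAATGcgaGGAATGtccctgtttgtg
ANKRD1, chr10:90921198-90921319, minus strand, -232 to -111 from the start: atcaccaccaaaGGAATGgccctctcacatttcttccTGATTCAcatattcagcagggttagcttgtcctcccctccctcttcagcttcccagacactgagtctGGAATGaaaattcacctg

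CCN2 held 3 cores, which began at -169, -104 and -95, and the last pair was only 9 bases apart. ANKRD1 held 2, at -220 and -128, with the AP-1 match between them at -195. Of the other windows, 4 genes had 1 core each, and their surroundings are printed to show that the flanks differ while the core is the same.
YAP1, chr11:102110273-102110302, plus strand, core at -162: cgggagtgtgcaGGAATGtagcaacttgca
AMOTL2, chr3:134374499-134374528, minus strand, core at -69: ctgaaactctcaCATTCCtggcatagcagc
AJUBA, chr14:22976884-22976913, minus strand, core at -59: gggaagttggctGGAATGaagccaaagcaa
LATS2, chr13:21061560-21061589, minus strand, core at 10: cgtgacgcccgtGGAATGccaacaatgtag

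AMOTL2 and AJUBA each had 2 windows, and 1 of the 2 held the core. WWTR1 had 2 windows and neither held it. A core was thus present in 6 of the 10 windows, and in 14.03% of all 35116 RefSeq windows of this length (4928 windows, both strands read). The AP-1 motif was present in 7.71% of all windows, and the sequence TATAAA, which CCN2 held at -32, in 7.33%. No window of these genes matched the CArG box, the motif of serum response factor, which 1.29% of all windows held. The targets were listed as genes that YAP, TAZ and TEAD are known to induce, so the gap between these shares is not evidence about these data. These matches are descriptions of letters and not measured binding sites, and a link between cores and the response to JQ1 was not tested.

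All 12 libraries had between 20349142 and 30788588 counts, and no 2 replicates were alike within sampling noise. Libraries of 1 group differed in how levels varied with the GC content of genes. The slope of this trend ran from -0.73 to 0.43 log2 units per 10 points of GC in UPCI-SCC-090 with JQ1, from -0.27 to 0.66 with DMSO, from -0.51 to 0.22 in UM-SCC-47 with JQ1 and from -0.014 to 0.22 with DMSO. The 3 libraries with the steepest trends, UPCI-SCC-090 JQ1 replicate 3, UPCI-SCC-090 DMSO replicate 2 and UM-SCC-47 JQ1 replicate 3, were left out together as an alternative. The share of counts on ribosomal protein genes was 11.4% to 12.2% in UPCI-SCC-090 with JQ1 against 4.59% to 6.25% with DMSO, and 6.79% to 9.73% in UM-SCC-47 with JQ1 against 6.64% to 7.01% with DMSO. The part of this share in the results was not tested. Of 6 squamous epithelial markers at least 5 reached 1 CPM in every group, with summed levels of 1655 to 3481 CPM per library, although KRT14 averaged only 0.872 CPM (JQ1) and 1.24 CPM (DMSO) in UPCI-SCC-090. The sum hides changes in single markers. With JQ1 KRT17 (log2 fold change 2.33) and KRT14 (1.12) rose and TP63 (-3.02) and KRT5 (-1.83) fell in UM-SCC-47. CDH1 rose in UPCI-SCC-090 (0.79). With DMSO KRT5, KRT14 and KRT17 were lower in UPCI-SCC-090 (85.9-fold, 103.5-fold and 4.74-fold), and no marker of the 6 was called higher. Fibroblast markers summed to at most 29.2 CPM in a library and endothelial markers to at most 8.09 CPM, mostly COL1A1 and CDH5, and COL1A2 was at or near 0 in every group. Leukocyte markers reached 41.1 CPM, mostly CD68, and muscle markers 4.11 CPM. COL1A1 and the muscle marker MYH11 fell with JQ1 in both lines, KDR fell in UPCI-SCC-090, CDH5 and VWF fell and PTPRC rose in UM-SCC-47, and their part in the results was not tested. CPM are counts relative to the TMM-scaled total of a library.

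The first question was whether JQ1 altered these genes in each line. In UM-SCC-47, 4 of the 10 genes rose and 0 fell (edgeR adjusted p under 0.05), and the 4 were all targets, namely CCN2, ANKRD1, CCN1 and AMOTL2. Over all 13440 genes tested in this line 16.1% rose and 25.5% fell. In UPCI-SCC-090, 9 genes could be tested, of which 1 rose (CCN2) and 2 fell (TEAD4 and AMOTL2), where 7.67% of 13150 genes rose and 20.4% fell. The median log2 fold change of the members was 0.43 in UM-SCC-47 against -0.032 over all genes, and -0.15 in UPCI-SCC-090 against -0.14 over all genes. JQ1 and DMSO libraries did not overlap for 5 of 10 members in UM-SCC-47 and 4 of 9 in UPCI-SCC-090, near the 55.3% and 40.5% of all genes tested. In a bulk sample, fewer cells that use a gene and less RNA per cell cannot be told apart.

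**Figure D1:**
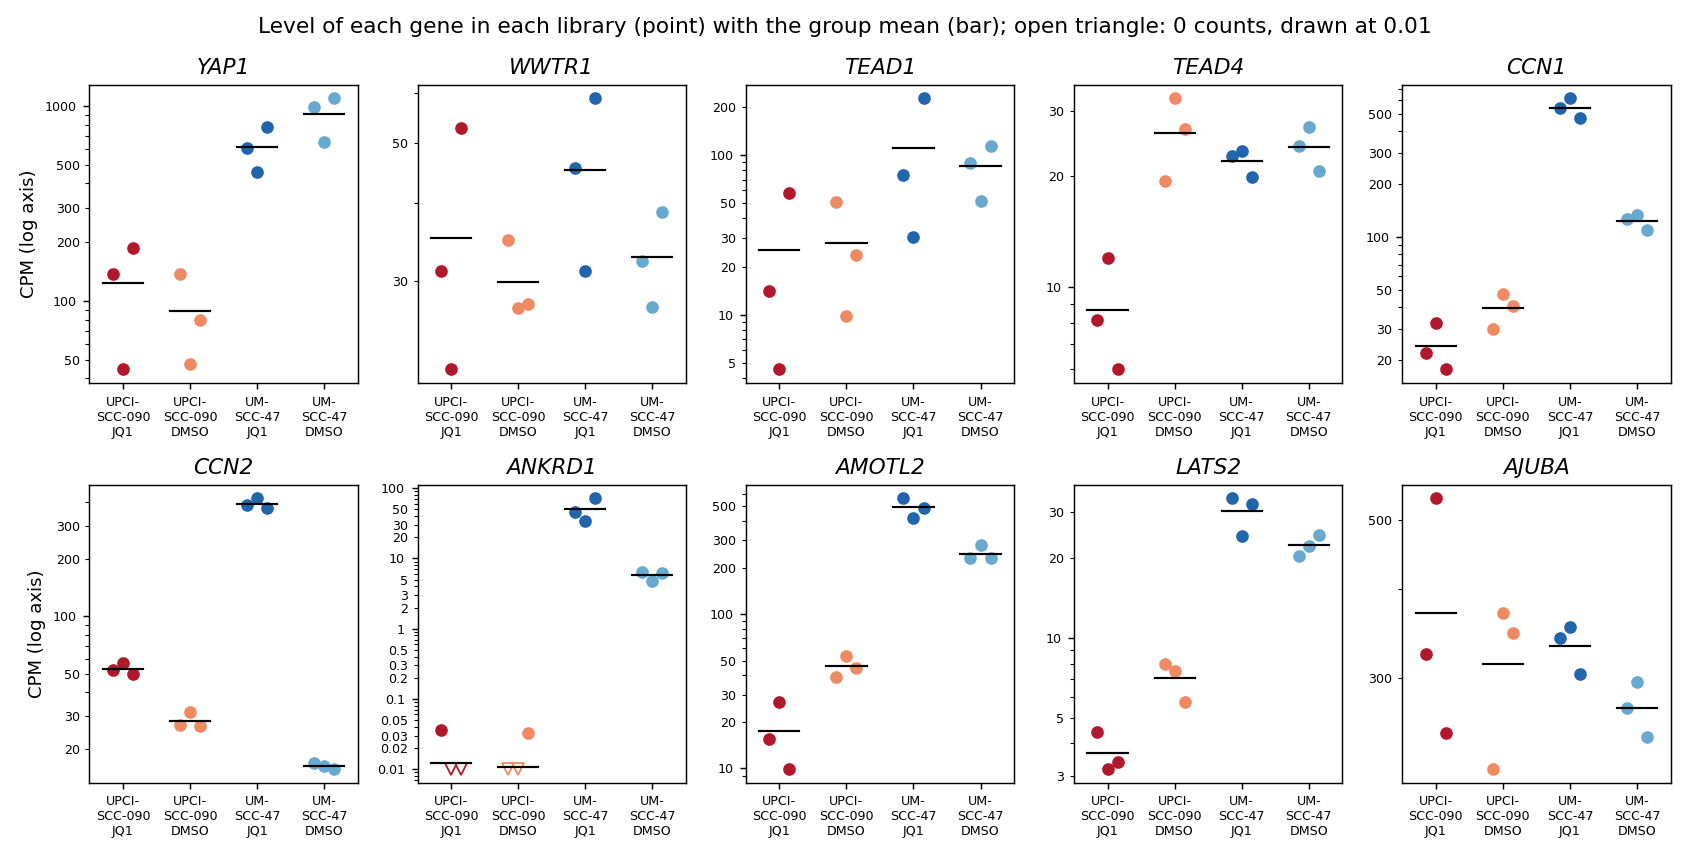
Level of each of the 10 genes in each library, in TMM-scaled CPM on a log axis. Points are libraries, bars are group means of 3 libraries, and open triangles are libraries with 0 counts. With JQ1 the 3 UM-SCC-47 libraries lay above their DMSO libraries for CCN1, CCN2, ANKRD1, AMOTL2 and AJUBA, while the effectors YAP1, WWTR1 and TEAD1 overlapped in both lines.

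YAP1 (chr11:101981178-102104155 in GRCh37, plus strand) encodes the main coactivator of the pathway. It stood at 138, 44.5 and 187 CPM in UPCI-SCC-090 with JQ1, against 138, 47.4 and 80.2 CPM with DMSO. In UM-SCC-47 the levels were 611, 458 and 784 CPM with JQ1, against 992, 651 and 1092 CPM with DMSO. Treated and vehicle libraries overlapped in both lines, and every UM-SCC-47 library lay above every UPCI-SCC-090 library. With JQ1 the log2 fold change was 0.42 ± 0.66 (SE, edgeR adjusted p = 0.703) in UPCI-SCC-090 and -0.58 ± 0.27 (edgeR adjusted p = 0.136) in UM-SCC-47, so neither passed. Between the lines YAP1 was lower in UPCI-SCC-090 by a log2 value of -3.50 ± 0.45 with DMSO (edgeR adjusted p = 0.000522) and -2.53 ± 0.50 with JQ1 (edgeR adjusted p = 0.00523), which was an 11.3-fold and a 5.77-fold difference. With the GC trend of each library removed, the decrease of YAP1 in UM-SCC-47 was -0.71 ± 0.19 and passed (edgeR adjusted p = 0.0236), as in 3 of 16 alternatives in all.

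WWTR1 (chr3:149235022-149454501, minus strand) encodes TAZ, the paralog of YAP. Its levels were 31.1, 21.6 and 52.8 CPM in UPCI-SCC-090 with JQ1, against 34.9, 27.1 and 27.6 CPM with DMSO. In UM-SCC-47 they were 45.5, 31.1 and 58.9 CPM with JQ1, against 32.2, 27.2 and 38.6 CPM with DMSO. All 4 groups overlapped one another. No comparison passed the test: the log2 fold change with JQ1 was 0.18 ± 0.45 (edgeR adjusted p = 0.815) in UPCI-SCC-090 and 0.45 ± 0.26 in UM-SCC-47 (edgeR adjusted p = 0.217). Between the lines it was -0.28 ± 0.23 with DMSO (edgeR adjusted p = 0.343) and -0.55 ± 0.42 with JQ1 (edgeR adjusted p = 0.372). The rise in UM-SCC-47 passed in 1 of 16 alternatives, without JQ1 replicate 2 (0.67 ± 0.20, edgeR adjusted p = 0.0412). The difference with JQ1 passed in 2 of 16, both with the GC trend removed. It was -0.66 ± 0.23 without a replicate block (edgeR adjusted p = 0.0497) and -0.66 ± 0.17 with it (edgeR adjusted p = 0.023).

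TEAD1 (chr11:12695968-12966284, plus strand), which carries YAP and TAZ to DNA, was spread widely between replicates. It was at 14.1, 4.55 and 57.7 CPM in UPCI-SCC-090 with JQ1, against 50.4, 9.85 and 23.7 CPM with DMSO. UM-SCC-47 had 74.5, 30.5 and 225 CPM with JQ1, against 89.0, 51.6 and 113 CPM with DMSO. Replicate 2 was the lowest library in all 4 groups. The log2 fold changes with JQ1, -0.15 ± 1.04 (edgeR adjusted p = 0.939) in UPCI-SCC-090 and 0.37 ± 0.70 in UM-SCC-47 (edgeR adjusted p = 0.703), were smaller than their standard errors. With DMSO TEAD1 was lower in UPCI-SCC-090 by -1.71 ± 0.60 (edgeR adjusted p = 0.0475), a call that was lost without replicate 1 (adjusted p = 0.103) or 3 (adjusted p = 0.13) of UM-SCC-47 or replicate 3 of UPCI-SCC-090 (adjusted p = 0.112), with library size only (adjusted p = 0.0806) and in 1 fit over 12 libraries (adjusted p = 0.187). With JQ1 the difference of -2.32 ± 0.97 did not pass (edgeR adjusted p = 0.11), but it passed in 6 of 16 alternatives, among them the fit with the GC trend removed (-2.47 ± 0.82, adjusted p = 0.0424) and that without UPCI-SCC-090 JQ1 replicate 3 (-3.72 ± 0.95, adjusted p = 0.0208). With a replicate block the difference was -2.54 ± 0.23 (edgeR adjusted p = 0.000451). Without the block, leaving out 1 library moved it over -3.72 to -1.25. In UPCI-SCC-090 the response of TEAD1 was called in 1 of 16 alternatives, without the 3 libraries of steepest GC trend (-1.90 ± 0.63, edgeR adjusted p = 0.0422).

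TEAD4 (chr12:3068496-3149842, plus strand) encodes another factor of the same family and was the only effector called with JQ1. It had 8.14, 11.96 and 5.98 CPM in UPCI-SCC-090 with JQ1, against 19.4, 32.5 and 26.8 CPM with DMSO. UM-SCC-47 had 22.7, 23.4 and 19.9 CPM with JQ1, against 24.1, 27.2 and 20.6 CPM with DMSO. Every treated UPCI-SCC-090 library was below every other library of the study, and the remaining 3 groups overlapped. In UPCI-SCC-090 TEAD4 fell by 1.72 ± 0.32 on the log2 scale (edgeR adjusted p = 0.0104), and the value in UM-SCC-47 was -0.14 ± 0.17 (edgeR adjusted p = 0.542). The call was lost without JQ1 replicate 1 (edgeR adjusted p = 0.115) or 3 (adjusted p = 0.0592), and without the 3 libraries of steepest GC trend (-1.16, adjusted p = 0.0994). The difference between the lines in this response, -1.47 ± 0.42, did not pass (edgeR adjusted p = 0.0638), and it passed in 8 of 21 alternatives, as with the GC trend removed (-1.37 ± 0.27, edgeR adjusted p = 0.00647).

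**Figure D2:**
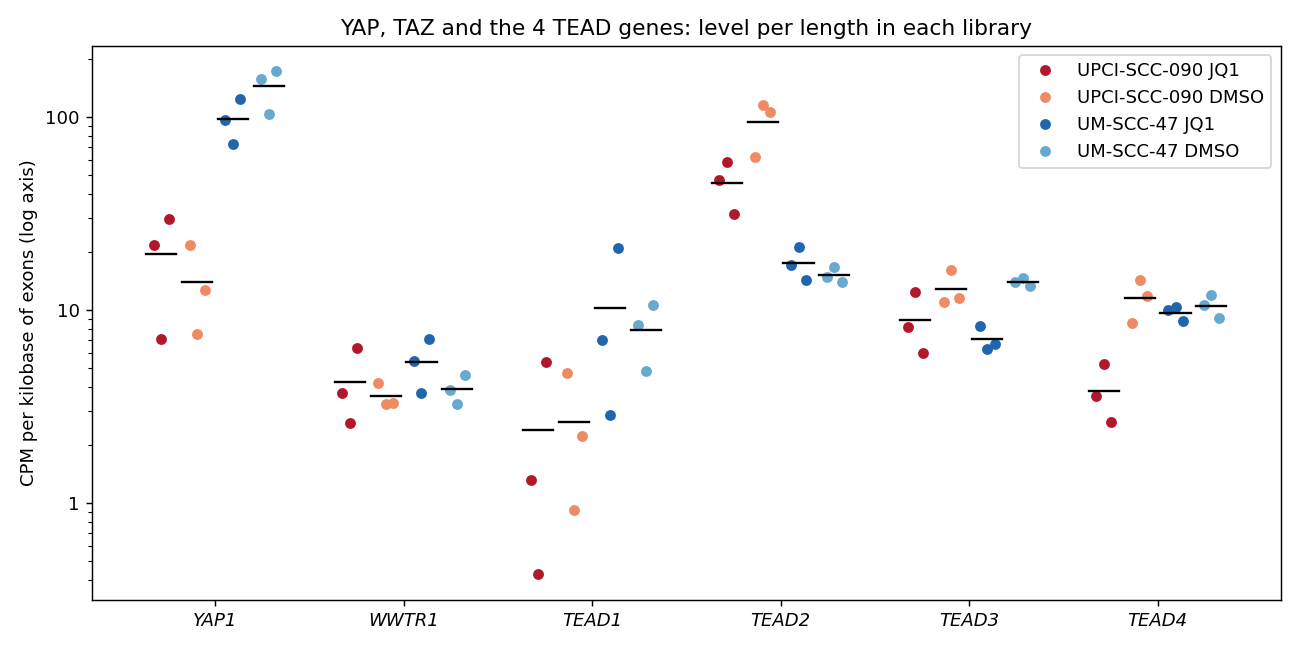
YAP1, WWTR1 and the 4 TEAD genes in CPM per kilobase of exons on a log axis, with points for libraries and bars for group means. YAP1 led in UM-SCC-47 with means of 97.9 with JQ1 and 145 with DMSO, and TEAD2 led in UPCI-SCC-090 with 45.7 with JQ1 and 94.4 with DMSO.

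Divided by the length of the exons, levels can be compared between genes. On this scale YAP1 was at 97.9 ± 25.8 CPM per kilobase in UM-SCC-47 with JQ1 and 145 ± 36.7 with DMSO (SD, n = 3), above the 5.40 ± 1.66 and 3.91 ± 0.69 of WWTR1 in every library. In UPCI-SCC-090 YAP1 was at 19.5 ± 11.4 with JQ1 and 14.0 ± 7.24 with DMSO, again above the 4.21 ± 1.91 and 3.57 ± 0.52 of WWTR1 in every library. Among the TEAD genes, TEAD2 had the highest mean in each of the 4 groups, although it overlapped TEAD1 in UM-SCC-47 with JQ1 and TEAD3 with DMSO. It was at 45.7 ± 13.6 CPM per kilobase in UPCI-SCC-090 with JQ1 and 94.4 ± 28.3 with DMSO, and at 17.5 ± 3.47 in UM-SCC-47 with JQ1 and 15.2 ± 1.35 with DMSO. With UM-SCC-47 as the base, TEAD2 was 5.50-fold higher in UPCI-SCC-090 with DMSO (edgeR adjusted p = 0.000132) and 2.32-fold higher with JQ1 (edgeR adjusted p = 0.0286), the opposite direction to YAP1. With JQ1 TEAD2 fell by 1.17 ± 0.27 on the log2 scale in UPCI-SCC-090 (edgeR adjusted p = 0.0218), a call lost with RLE factors (adjusted p = 0.117), upper-quartile factors (adjusted p = 0.0613), no filter (adjusted p = 0.0579) and DESeq2 (adjusted p = 0.176), and without the 3 libraries of steepest GC trend (adjusted p = 0.3), DMSO replicate 2 (adjusted p = 0.0784) or 3 (adjusted p = 0.086) or JQ1 replicate 1 (adjusted p = 0.16) or 3 (adjusted p = 0.11). TEAD3 fell by 1.00 ± 0.16 in UM-SCC-47 (edgeR adjusted p = 0.0033).

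On the same scale the order of the members changed with JQ1 in UM-SCC-47. With JQ1 CCN2 led with 168 CPM per kilobase, followed by CCN1 with 147, YAP1 with 97.9, AMOTL2 with 75.6, AJUBA with 56.6 and ANKRD1 with 28.3. CCN2 and CCN1 overlapped over their 3 libraries, as did YAP1 and AMOTL2, and the other neighbors in this order did not. With DMSO the same line had YAP1 first with 145, then AJUBA with 46.2, AMOTL2 with 38.0 and CCN1 with 33.4, while CCN2 was at 6.98 and ANKRD1, the lowest, at 3.21. In UPCI-SCC-090 AJUBA was first in both groups, with 63.0 with JQ1 and 53.3 with DMSO, and did not overlap the second. Behind it came CCN2 with 22.7, YAP1 with 19.5 and CCN1 with 6.55 with JQ1, against YAP1 with 14.0, CCN2 with 12.1, TEAD4 with 11.5 and CCN1 with 10.7 with DMSO, and in each group these neighbors overlapped. LATS2 and ANKRD1 were the lowest pair in both groups of UPCI-SCC-090. With the longest transcript in place of all exons part of this order changed. In UM-SCC-47 with JQ1 CCN1 (177) then stood above CCN2 (168). In UPCI-SCC-090 YAP1 (22.74) stood above CCN2 (22.67) with JQ1, and TEAD4 (15.3) and CCN1 (12.8) stood above CCN2 (12.1) with DMSO. AJUBA stayed first in UPCI-SCC-090 (88.9 with JQ1 and 75.2 with DMSO), as did YAP1 in UM-SCC-47 with DMSO (169).

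CCN2 (CTGF; chr6:132269316-132272512, minus strand), a secreted matricellular protein and a standard readout of YAP activity, had the largest response. It was at 386, 418 and 373 CPM in UM-SCC-47 with JQ1, against 16.9, 16.4 and 15.8 CPM with DMSO. In UPCI-SCC-090 it was at 52.1, 56.9 and 49.98 CPM with JQ1, against 26.9, 31.6 and 26.6 CPM with DMSO. Treated libraries lay above vehicle libraries in both lines, and the spread within each group was small. The log2 fold change was 4.57 ± 0.12 in UM-SCC-47 (23.8-fold, edgeR adjusted p = 5.09e-05) and 0.80 ± 0.22 in UPCI-SCC-090 (1.74-fold, edgeR adjusted p = 0.04). The smaller of these was called in 7 of 16 alternatives, and it was lost without any of the 3 DMSO replicates (edgeR adjusted p = 0.0673, 0.112 and 0.158 without replicates 1, 2 and 3) or JQ1 replicate 1 (adjusted p = 0.178) or 3 (adjusted p = 0.0819). The order of the lines turned round with treatment: CCN2 was higher in UPCI-SCC-090 by 0.63 ± 0.19 with DMSO (edgeR adjusted p = 0.0296) and lower by -3.06 ± 0.26 with JQ1 (edgeR adjusted p = 8.38e-05). The call with DMSO was lost without UM-SCC-47 replicate 1 (edgeR adjusted p = 0.124), 2 (adjusted p = 0.102) or 3 (adjusted p = 0.149) or UPCI-SCC-090 replicate 3 (adjusted p = 0.0626).

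CCN1 (CYR61; chr1:86046444-86050272, plus strand), the closest relative of CCN2 in function, is an immediate early target of YAP. It was at 543, 615 and 475 CPM in UM-SCC-47 with JQ1, against 126, 134 and 110 CPM with DMSO. UPCI-SCC-090 had 22.1, 32.8 and 17.8 CPM with JQ1, against 30.1, 47.6 and 40.7 CPM with DMSO. All treated libraries were above all vehicle libraries in UM-SCC-47, while in UPCI-SCC-090 the groups overlapped through treated replicate 2 and vehicle replicate 1. CCN1 rose by 2.13 ± 0.15 in UM-SCC-47 (4.37-fold, edgeR adjusted p = 0.000232), and the value in UPCI-SCC-090, -0.83 ± 0.28, missed the threshold (edgeR adjusted p = 0.0739). With the GC trend removed the decrease in UPCI-SCC-090 passed (-0.88 ± 0.28, edgeR adjusted p = 0.0469), as in 4 of 16 alternatives in all. Between the lines CCN1 was lower in UPCI-SCC-090 by -1.82 ± 0.20 with DMSO (edgeR adjusted p = 0.000241) and by -4.66 ± 0.37 with JQ1 (edgeR adjusted p = 6.16e-05).

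ANKRD1 (CARP; chr10:92671853-92680844, minus strand), a stretch-responsive cofactor found in muscle and a sensitive YAP target, was detected almost only in UM-SCC-47. UM-SCC-47 had 46.0, 33.7 and 72.0 CPM with JQ1, against 6.44, 4.70 and 6.11 CPM with DMSO. In UPCI-SCC-090 the 3 libraries held 1 count in all with JQ1 and 1 count in all with DMSO, too few to be tested for a response. Treated UM-SCC-47 libraries were all above the vehicle libraries, and the log2 fold change was 3.12 ± 0.33 (8.71-fold, edgeR adjusted p = 0.00079). The UM-SCC-47 libraries held 3262 counts with JQ1 and 467 with DMSO. The scaled ratio of UM-SCC-47 to UPCI-SCC-090 was 3755 with JQ1 (95% interval 674 to 148400) and 484 with DMSO (86.5 to 19170), and these intervals cover counting error only.

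**Figure D3:**
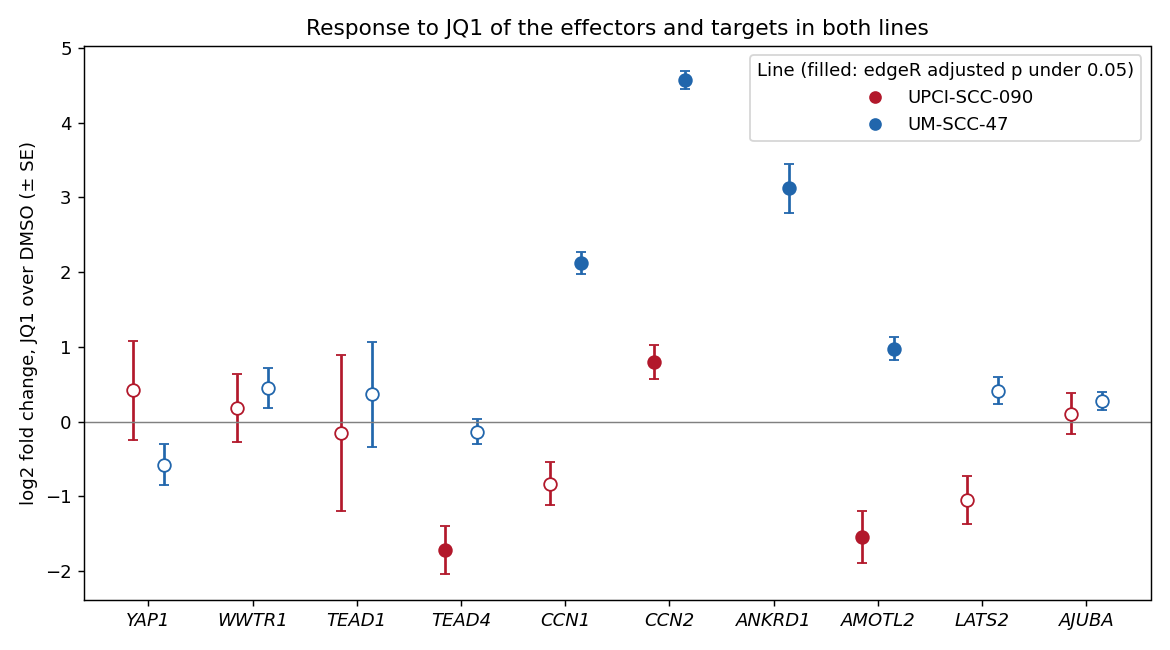
log2 fold change of JQ1 over DMSO for the 10 genes in UPCI-SCC-090 and UM-SCC-47, with standard errors from edgeR and filled points where the adjusted p was under 0.05. CCN2, ANKRD1, CCN1 and AMOTL2 lie above 0 in UM-SCC-47, where AMOTL2 is at 0.98, while AMOTL2 and TEAD4 lie below 0 in UPCI-SCC-090 and ANKRD1 could not be tested there.

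AMOTL2 (chr3:134074189-134094321, minus strand) encodes an angiomotin that binds YAP and holds it outside the nucleus, so that it is both a target and an inhibitor. It was at 562, 420 and 488 CPM in UM-SCC-47 with JQ1, against 231, 278 and 229 CPM with DMSO. In UPCI-SCC-090 it had 15.6, 26.8 and 9.90 CPM with JQ1, against 39.3, 53.4 and 45.0 CPM with DMSO. The groups did not overlap in either line, and the directions were opposite. AMOTL2 rose by 0.98 ± 0.15 in UM-SCC-47 (edgeR adjusted p = 0.00337) and fell by 1.55 ± 0.35 (edgeR adjusted p = 0.0188) in UPCI-SCC-090. This decrease was called in 7 of 16 alternatives and was lost without DMSO replicate 2 (edgeR adjusted p = 0.0652) or 3 (adjusted p = 0.0663) or JQ1 replicate 1 (adjusted p = 0.174) or 3 (adjusted p = 0.0834), and in the fit without the 3 libraries of steepest GC trend (-0.95, adjusted p = 0.165). Between the lines AMOTL2 was lower in UPCI-SCC-090 by -2.60 ± 0.18 with DMSO (edgeR adjusted p = 2.51e-05) and by -4.97 ± 0.46 with JQ1 (edgeR adjusted p = 0.000122), which was 6.05-fold and 31.4-fold. The exons of AMOTL2 share 187 bases with a pseudogene on the same strand, RPL39P5, which has no row of its own.

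LATS2 (chr13:21547175-21635725, minus strand) encodes a kinase that phosphorylates YAP and TAZ and is induced by them. It had 4.399, 3.20 and 3.41 CPM in UPCI-SCC-090 with JQ1, against 7.98, 7.48 and 5.72 CPM with DMSO. UM-SCC-47 had 33.8, 24.3 and 32.3 CPM with JQ1, against 20.4, 22.3 and 24.6 CPM with DMSO. The groups were apart in UPCI-SCC-090, with treated libraries lower, and overlapped in UM-SCC-47 by 1 treated library. Neither response passed, with -1.05 ± 0.32 (edgeR adjusted p = 0.0536) in UPCI-SCC-090 and 0.41 ± 0.18 in UM-SCC-47 (edgeR adjusted p = 0.115), while each passed in 3 of 16 alternatives, that in UM-SCC-47 without JQ1 replicate 2 among them (0.55 ± 0.14, adjusted p = 0.0236). Between the lines LATS2 was lower in UPCI-SCC-090 by -1.83 ± 0.24 with DMSO (edgeR adjusted p = 0.000562) and by -3.21 ± 0.39 with JQ1 (edgeR adjusted p = 0.000413).

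AJUBA (chr14:23440386-23451760, minus strand) encodes a LIM protein that binds LATS kinases and restrains them. It had 324, 537 and 251 CPM in UPCI-SCC-090 with JQ1, against 223, 371 and 347 CPM with DMSO. In UM-SCC-47 the levels were 341, 354 and 304 CPM with JQ1, against 272, 296 and 248 CPM with DMSO. Treated libraries were above vehicle libraries in UM-SCC-47, and all groups otherwise overlapped. The log2 fold change was 0.11 ± 0.28 (edgeR adjusted p = 0.823) in UPCI-SCC-090 and 0.28 ± 0.12 in UM-SCC-47 (edgeR adjusted p = 0.111). Between the lines it was 0.029 ± 0.20 with DMSO (edgeR adjusted p = 0.92) and -0.0092 ± 0.34 with JQ1 (edgeR adjusted p = 0.988). Among the 6 targets it was the only one for which no comparison passed, although the rise in UM-SCC-47 passed in 3 of 16 alternatives, without JQ1 replicate 3 among them (0.47 ± 0.15, edgeR adjusted p = 0.0348), and the difference with DMSO in 1, without UPCI-SCC-090 replicate 1 (0.41 ± 0.11, edgeR adjusted p = 0.0215). Its exons share 50 bases with a neighboring gene on the same strand, ENSG00000259132, which has a row of its own in the table.

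The next question was whether the lines differed in their response, which was tested as the interaction of line and JQ1 and is negative where the log2 fold change was lower in UPCI-SCC-090. It passed for 4 of the 10 genes, all negative, against 3.63% of 14396 genes with a negative call and 2.93% with a positive one. The 4 were targets. CCN2 differed by -3.68 ± 0.23 (edgeR adjusted p = 1.11e-05), CCN1 by -2.85 ± 0.36 (edgeR adjusted p = 0.000953) and AMOTL2 by -2.39 ± 0.43 (edgeR adjusted p = 0.00833). These 3 calls held in all 21 alternatives. LATS2 differed by -1.37 ± 0.36 (edgeR adjusted p = 0.0431) and was called in only 9 of 21. Without 1 library it was lost for UM-SCC-47 DMSO replicates 1, 2 and 3 (edgeR adjusted p = 0.14, 0.116 and 0.101), UM-SCC-47 JQ1 replicate 1 (adjusted p = 0.135), UPCI-SCC-090 DMSO replicates 1 and 2 (adjusted p = 0.0525 and 0.0878) and UPCI-SCC-090 JQ1 replicates 1 and 3 (adjusted p = 0.0558 and 0.0672). YAP1, at 1.04 ± 0.69, was the only member with a positive value, and it did not pass (edgeR adjusted p = 0.474). The value of ANKRD1 rests on 2 counts in UPCI-SCC-090 and is not given.

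Between the lines themselves, of the 9 members that could be tested within UPCI-SCC-090 5 were lower there with DMSO and 1 was higher (CCN2), where 25.3% of 14108 genes were lower and 22.7% were higher. With JQ1 6 of the 9 were lower and 0 higher, where 18.0% of 13303 genes were lower and 13.8% were higher. ANKRD1 was also called lower in both, but it passed the filter on low counts through UM-SCC-47 alone and is left out of these counts. YAP1, CCN1, AMOTL2 and LATS2 were lower in both. TEAD1 was called lower with DMSO, and TEAD4 and CCN2 with JQ1. The values with JQ1 and DMSO differ by the interaction, which did not pass for TEAD1 (-0.52 ± 1.27, edgeR adjusted p = 0.899). For TEAD4 the value was -1.51 ± 0.41 with JQ1 (edgeR adjusted p = 0.0241) and -0.050 ± 0.24 with DMSO (edgeR adjusted p = 0.881). The call with JQ1 was lost without UM-SCC-47 replicate 1 (edgeR adjusted p = 0.0649) or 3 (adjusted p = 0.0502) or UPCI-SCC-090 replicate 1 (adjusted p = 0.113). The comparisons share libraries, so their calls are not separate evidence. Other conserved targets of YAP and TAZ were also mostly lower in UPCI-SCC-090, with 10 lower and 1 higher with DMSO of the 15 that could be tested within UPCI-SCC-090 (median log2 difference -1.39) and 12 lower and 0 higher with JQ1 (median -3.62), beside a median over all genes of -0.0069 with DMSO and -0.033 with JQ1.

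**Figure D4:**
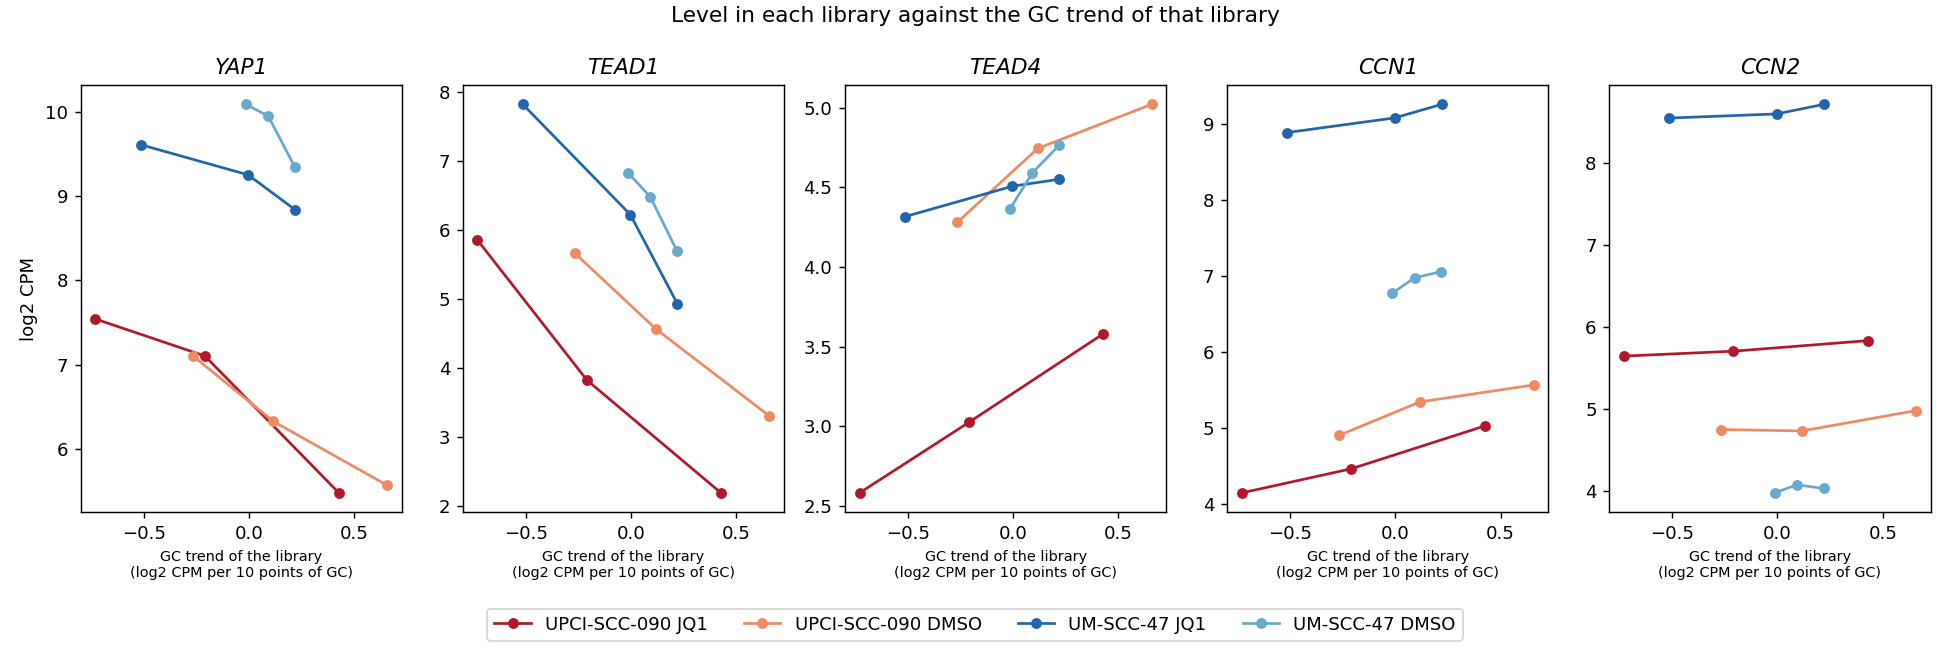
log2 CPM of YAP1, TEAD1, TEAD4, CCN1 and CCN2 in each library against the slope of that library's levels on gene GC content, with lines joining the 3 libraries of a group. In all 4 groups YAP1 and TEAD1 ran down and TEAD4 and CCN1 ran up with the slope, while CCN2 moved little within a group.

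The spread among replicates followed the GC trend of the libraries for some members. YAP1, WWTR1 and TEAD1, whose exons are 43.5%, 42.2% and 43.0% GC, were ordered exactly against the trend in all 4 groups. TEAD4 (60.4% GC), CCN1 (47.8%) and AJUBA (52.6%) were ordered with it in all 4. Of 14396 genes 12.18% were ordered with the trend in all 4 groups and 11.99% against it. CCN2 (51.5%), ANKRD1 (42.1%), AMOTL2 (56.3%) and LATS2 (51.8%) were ordered so in at most 3 groups. The responses of CCN1, CCN2, ANKRD1 and AMOTL2 in UM-SCC-47 were called with the trend removed, and in all 16 alternatives.

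Among genes of the pathway outside the 10, few of the kinase core were called. Of 20 kinases and adaptors 1 rose and 1 fell in UM-SCC-47 (16.1% and 25.5% over all genes), and 0 rose and 3 fell in UPCI-SCC-090 (7.67% and 20.4%). In UM-SCC-47 the rise was in SAV1, the scaffold of the MST kinases (1.18 ± 0.17, edgeR adjusted p = 0.00228), and the fall in STRN4, a subunit of the phosphatase complex that counteracts MST (-0.56 ± 0.16, edgeR adjusted p = 0.0336). The falls in UPCI-SCC-090 were in the kinases TAOK2 (-2.01 ± 0.42, edgeR adjusted p = 0.0152) and MAP4K4 (-1.08 ± 0.20, edgeR adjusted p = 0.0101) and in WWC1, the adaptor KIBRA (-1.62 ± 0.37, edgeR adjusted p = 0.0195). The median of these 20 was -0.30 in UPCI-SCC-090 and 0.14 in UM-SCC-47, beside -0.14 and -0.032 over all genes. Of 4 scaffolds and inhibitors around LATS and YAP tested in UM-SCC-47 1 rose and 1 fell (16.1% and 25.5% over all genes). In UPCI-SCC-090 0 rose and 2 fell of 5 tested (7.67% and 20.4%). The rise was in WTIP (1.24 ± 0.18, edgeR adjusted p = 0.00237). LIMD1, a relative of AJUBA that likewise restrains LATS kinases, fell in both lines, by 4.24 ± 0.42 (edgeR adjusted p = 0.0037) in UPCI-SCC-090 and by 2.02 ± 0.23 in UM-SCC-47 (edgeR adjusted p = 0.00105). Its levels averaged 1.66 CPM with JQ1 against 29.2 CPM with DMSO in UPCI-SCC-090, and 6.76 CPM with JQ1 against 27.1 CPM with DMSO in UM-SCC-47. PTPN14, a phosphatase that binds YAP and that the E7 protein of high-risk papillomaviruses targets for degradation, fell by 2.03 ± 0.37 (edgeR adjusted p = 0.00974) in UPCI-SCC-090. VGLL4, which competes with YAP for TEAD, rose by 1.04 ± 0.15 in UM-SCC-47 (edgeR adjusted p = 0.00252), where VGLL1, another TEAD partner, fell by 0.86 ± 0.21 (edgeR adjusted p = 0.0182).

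The rise of CCN1 and CCN2 in UM-SCC-47 was not shared by the other CCN genes that could be tested there. Of the 4 other CCN genes 2 were tested, and CCN4 and CCN6 had too few counts. Both genes tested fell, where 25.5% of all genes fell. CCN5 fell by 3.05 ± 0.20 (edgeR adjusted p = 0.000192) and CCN3 by 2.51 ± 0.22 (edgeR adjusted p = 0.000466). Of 17 further YAP and TAZ targets 4 rose and 4 fell in UM-SCC-47, near the 16.1% and 25.5% of all genes, and the median was -0.054 beside -0.032. Of 15 tested in UPCI-SCC-090 1 rose and 7 fell, where 7.67% and 20.4% of all genes did, and the median was -1.13 beside -0.14. PTPN14 is in this list and in that of scaffolds and inhibitors, so its fall there is counted in both. In UM-SCC-47 the rises were in GADD45A, a growth arrest gene (2.25 ± 0.13), NT5E, the ectonucleotidase CD73 (1.63 ± 0.31), CRIM1, which binds BMPs (1.35 ± 0.21), and F3, tissue factor (0.66 ± 0.15). The falls were in the transcription factor FOXF2 (-2.99 ± 0.20), the matrix protein CCDC80 (-2.79 ± 0.15), IGFBP3, which binds insulin-like growth factors (-1.97 ± 0.19), and FJX1, a secreted relative of Four-jointed in flies (-1.71 ± 0.28). GADD45A was the only one of the list that rose in UPCI-SCC-090, by 2.35 ± 0.21 (edgeR adjusted p = 0.0037), with an interaction value of 0.20 ± 0.25 (edgeR adjusted p = 0.754). The 7 falls there included TGFB2, a TGF-beta ligand (-4.42 ± 0.98), and ARHGEF17, a guanine nucleotide exchange factor (-3.56 ± 0.50). The response of NT5E, which rose in UM-SCC-47 and fell in UPCI-SCC-090, differed by -5.70 ± 0.83 (edgeR adjusted p = 0.00229).

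**Figure D5:**
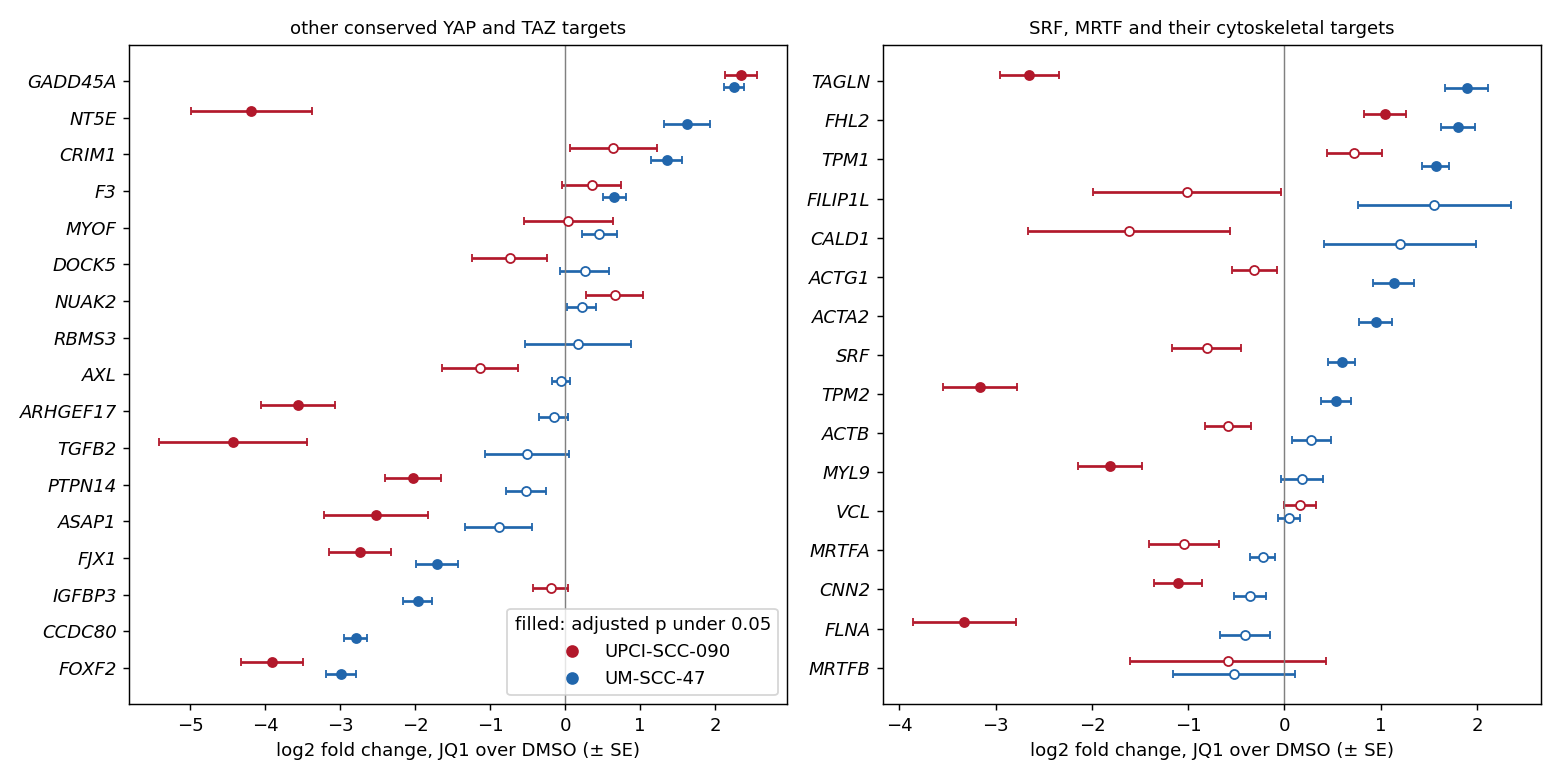
log2 fold change of JQ1 over DMSO with standard errors in UPCI-SCC-090 and UM-SCC-47 for 17 other conserved YAP and TAZ targets (left) and for 16 genes of serum response factor and its cytoskeletal targets (right), filled where the edgeR adjusted p was under 0.05. GADD45A is at 2.35 and 2.25 in the 2 lines, whereas TAGLN is at -2.65 in UPCI-SCC-090 and 1.89 in UM-SCC-47.

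CCN1, CCN2 and ANKRD1 are also induced through serum response factor (SRF) and its actin-sensing cofactors, and TGF-beta induces CCN2. Of 16 SRF and cytoskeletal genes tested in UM-SCC-47 7 rose and 0 fell (16.1% and 25.5% over all genes), with a median of 0.57 beside -0.032. Of 15 tested in UPCI-SCC-090 1 rose and 5 fell (7.67% and 20.4% over all genes), with a median of -1.01 beside -0.14. TAGLN, the actin-binding protein SM22, was at 348, 479 and 276 CPM in UM-SCC-47 with JQ1, against 106, 102 and 86.1 CPM with DMSO. In UPCI-SCC-090 it was at 8.22, 8.23 and 5.56 CPM with JQ1, against 29.9, 51.2 and 46.6 CPM with DMSO. Its groups were apart in both lines and in opposite directions, and the response differed by -4.45 ± 0.40 (edgeR adjusted p = 0.000157). FLNA, which crosslinks actin (-2.76 ± 0.67, edgeR adjusted p = 0.0321), TPM2, a tropomyosin (-3.60 ± 0.41, edgeR adjusted p = 0.000611), and MYL9, a myosin light chain (-1.89 ± 0.43, edgeR adjusted p = 0.0236), also differed with lower values in UPCI-SCC-090. ACTA2, smooth muscle actin, was called the other way (4.42 ± 0.66, edgeR adjusted p = 0.00993), on 15 counts with JQ1 and 0 with DMSO in UPCI-SCC-090, so its value depends on the prior count. FHL2, a LIM cofactor, rose in both lines, by 1.05 ± 0.22 (edgeR adjusted p = 0.0145) in UPCI-SCC-090 and by 1.80 ± 0.18 in UM-SCC-47 (edgeR adjusted p = 0.000654). Of 10 genes of the TGF-beta response 2 rose and 2 fell in each line. Over all genes 7.67% rose and 20.4% fell in UPCI-SCC-090, and 16.1% rose and 25.5% fell in UM-SCC-47. In UM-SCC-47 the receptor TGFBR2 (1.498 ± 0.11) was among those that rose, whereas LTBP2, which binds latent TGF-beta in the matrix (-2.74 ± 0.20), and THBS1, an activator of latent TGF-beta (-0.52 ± 0.15), fell.

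For 5 members the genes most like them across the 12 libraries were read from Pearson's r of log2(CPM + 0.5) over 11648 genes whose mean reached 5 CPM in some group. These points are 4 groups of 3 libraries, so a high r says little more than that the group means run alike. CCN1 was nearest to the keratins KRT18 (r = 0.991), KRT8 (r = 0.988) and KRT17 (r = 0.988). CCN2 was nearest to SLC17A5 (r = 0.976), which exports sialic acid from lysosomes, the stress factor ATF3 (r = 0.975) and BEX2 (r = 0.965). ANKRD1 was nearest to PLD5 (r = 0.996), GRB14 (r = 0.995) and QPCT (r = 0.994), all near 0 in UPCI-SCC-090. TEAD4 was nearest to AMPD2 (r = 0.987), PDLIM2 (r = 0.987) and ZYX (r = 0.984), and LATS2 to fibronectin, FN1 (r = 0.992), OSMR (r = 0.99) and FOXL2NB (r = 0.989). ZYX, a LIM protein of focal adhesions, averaged 16.9 CPM with JQ1 against 81.8 CPM with DMSO in UPCI-SCC-090, and 72.7 CPM with JQ1 against 70.1 CPM with DMSO in UM-SCC-47, the shape that TEAD4 had.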

How the data were processed

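Total RNA of 2 cell lines with JQ1 or DMSO was sequenced by the authors from stranded, ribosomal RNA-depleted libraries, in 12 libraries. The values are estimated counts that the authors made with Salmon, summed per gene and deposited unscaled in a column for each library. Salmon 0.8.2 and DESeq2 1.28.0 stand in the submitters' processing notes, while index and build were not given in the sources used here. Because such estimates share reads out between transcripts of like sequence, counts of paralogs such as TEAD1 to TEAD4 can shift.

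Counts were rounded to whole numbers, and the tests used edgeR 4.0.16 under R 4.3.3 (filterByExpr with a minimum count of 10 and a minimum total of 15, TMM, quasi-likelihood F test, Benjamini-Hochberg over all genes tested, called under 0.05). JQ1 was compared with DMSO in each line and the lines within each treatment in fits of 6 libraries, and the interaction was fitted over 12. The standard error of a log2 fold change was its size over the root of F. DESeq2 1.42.0, other scalings, no filter, GC offsets, a replicate block, 1 fit over all 12 libraries, the longest transcript as gene length and each library left out were alternatives. The scripts were tested on simulated data. Symbols, GRCh37 coordinates and lengths came from GENCODE 44 lifted to GRCh37, in which 20015 of the 20738 IDs were found and 723 were not. Promoter windows for CCN1, TEAD1 and TEAD4 were not used here. The result for 1 gene of the TGF-beta list is not reported here.

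The members and lists were chosen with earlier results of these data known. All 10 members were named, and of each other list up to 4 called genes per line and direction with the largest change and a higher group averaging 5 CPM or more, of which the text gives part. For likeness the 3 genes of highest r were named. Genes named beyond this rule (TEAD2, TEAD3 and single marker genes) were chosen after their values were seen. The labels do not say that the replicate numbers pair the libraries, and the main fits used no replicate block.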

Additional observations from a re-analysis of the deposited data

Results flagged for a closer look

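For 4 of the 10 genes the response to JQ1 differed between the lines by the interaction test over 12 libraries (edgeR, adjusted over all genes). The difference, UPCI-SCC-090 minus UM-SCC-47 on the log2 scale, was -3.68 ± 0.23 (SE) for CCN2, -2.85 ± 0.36 for CCN1, -2.39 ± 0.43 for AMOTL2 and -1.37 ± 0.36 for LATS2. CCN2 was higher with JQ1 in 3 of 3 libraries of each line. AMOTL2 was lower with JQ1 in 3 of 3 libraries of UPCI-SCC-090 and higher in 3 of 3 of UM-SCC-47. For LATS2 the call was present in 9 of 21 alternatives. No explanation was tested.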

How the results depend on the processing

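The count of members called with JQ1 stayed at 4 to 6 in UM-SCC-47 over 16 alternatives, at 3 to 5 for the difference in response over 21, at 5 to 8 between the lines with DMSO and at 6 to 9 with JQ1, ANKRD1 included. In UPCI-SCC-090 the count of 3 was 1 with upper-quartile factors, without a filter on low counts and without the 3 libraries of steepest GC trend, and 5 with GC offsets and a replicate block and in 1 fit over 12 libraries. Leaving out each library in turn gave 0 to 3 there, with 1 without DMSO replicate 2 or 3 and 0 without JQ1 replicate 1 or 3. Without the steepest libraries all 3 were lost (adjusted p = 0.0994 for TEAD4, 0.103 for CCN2 and 0.165 for AMOTL2, edgeR), and the 1 call was TEAD1 (-1.90). In UPCI-SCC-090 CCN2, AMOTL2 and TEAD4 are thus less firm than the calls in UM-SCC-47.

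Members whose direction changed were not called with TMM in these comparisons, although TEAD1 in UPCI-SCC-090 was called without the steepest libraries and AJUBA between the lines with DMSO without UPCI-SCC-090 replicate 1 (0.41). In UM-SCC-47 TEAD1 was -0.024 with the replicate block, -0.15 with GC offsets and the block and -0.60 without the steepest libraries, and TEAD4 was 0.015 with RLE factors, 0.029 with DESeq2, 0.11 with GC offsets, 0.090 with both GC offsets and the block and 0.061 without the steepest libraries. In UPCI-SCC-090 WWTR1 was -0.087 with library size only, -0.19 with GC offsets, -0.22 with GC offsets and the block and -0.18 without the steepest libraries. There YAP1 was -0.17 without the steepest libraries, TEAD1 0.083 with RLE factors and 0.10 with DESeq2, and AJUBA -0.087 with library size only. The difference in response of AJUBA was 0.29 without the steepest libraries. Between the lines with DMSO TEAD4 was 0.013 with RLE factors, 0.082 with library size only, 0.092 without a filter, 0.027 with DESeq2 and 0.13 in 1 fit, and AJUBA was -0.0081 with GC offsets and the block and -0.061 without the steepest libraries. With JQ1 AJUBA was 0.011 with RLE factors, 0.023 with upper-quartile factors, 0.041 with library size only, 0.0013 without a filter, 0.022 with DESeq2, 0.22 without the steepest libraries and 0.15 in 1 fit. The cause was not tested.

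Leaving out each library in turn moved the response in UM-SCC-47 over -0.60 to 0.82 for TEAD1 and -0.23 to 0.061 for TEAD4. In UPCI-SCC-090 the ranges were -0.015 to 0.95 for YAP1, -0.22 to 0.52 for WWTR1, -1.65 to 0.66 for TEAD1 and -0.093 to 0.44 for AJUBA. For the difference in response they were -0.64 to 0.025 for WWTR1, -1.96 to 0.47 for TEAD1 and -0.42 to 0.17 for AJUBA. Between the lines they were -0.18 to 0.31 for TEAD4 and -0.061 to 0.41 for AJUBA with DMSO, and -0.28 to 0.23 for AJUBA with JQ1.

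Whether the replicate numbers pair the libraries could not be settled, as the values were mixed. Replicate 2 had the highest GC slope in all 4 groups. Within a line same-numbered libraries correlated in their deviations by -0.147, 0.199 and 0.429 in UM-SCC-47 and by 0.0954, 0.789 and 0.207 in UPCI-SCC-090. Across the lines these values were -0.126, 0.552 and 0.753 with JQ1 and 0.0529, 0.309 and -0.0692 with DMSO. Not every library was closest to its own number. With the replicate block 5 members were called in UM-SCC-47, 4 in UPCI-SCC-090, 5 for the difference in response, 6 between the lines with DMSO and 8 with JQ1.

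Scaling moved the median of all genes from -0.032 with TMM to 0.12 with RLE factors and -0.28 with library size only in UM-SCC-47, and from -0.14 to 0.14 and -0.38 in UPCI-SCC-090. Calls over all genes, 2163 higher and 3431 lower with TMM in UM-SCC-47, were 1456 and 4589 with library size only, 2853 and 2786 with DESeq2 and 1348 and 2489 in 1 fit. In UPCI-SCC-090 1009 higher and 2680 lower became 1287 and 1755 with RLE factors, 635 and 3069 with library size only, 1507 and 1987 with DESeq2, 1646 and 3307 with GC offsets, 1980 and 3684 with GC offsets and the block and 1915 and 3227 in 1 fit. For the difference in response 422 higher and 523 lower became 781 and 1041 with GC offsets, 894 and 1145 with GC offsets and the block and 299 and 326 without the steepest libraries. Between the lines with JQ1 1838 higher and 2393 lower became 2826 and 3482 with the block, 3275 and 3915 with GC offsets and the block and 3448 and 3012 in 1 fit. With each library left out, the calls ranged from 371 to 1303 higher and 1009 to 2801 lower in UPCI-SCC-090, 1198 to 3051 and 2422 to 3756 in UM-SCC-47, 201 to 652 and 256 to 1123 for the difference in response, 2209 to 4770 and 2670 to 3932 between the lines with DMSO and 1065 to 2422 and 1801 to 2780 with JQ1. With the longest transcript, levels per kilobase of WWTR1 were 6.98 and 5.93 in UPCI-SCC-090 with JQ1 and DMSO, beside the order changes above. With 3 libraries a group, values of YAP1 and TEAD1 above 2 standard errors were also not called (-0.58 ± 0.27 for YAP1 in UM-SCC-47 and -2.32 ± 0.97 for TEAD1 between the lines with JQ1).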
